A study of Mus musculus with 4 samples.

Results

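The genes described here code for giant and Z-disc proteins of the sarcomere, the contractile unit of muscle: Ttn, Neb, Actn2, Actn3, Ldb3, Myoz1, Myoz2, Tcap, Xirp2 and Ankrd23, which are 10 of the 25827 genes counted. They were chosen by their role as scaffolds of the filaments and the Z-disc and selected on measured values: Tcap and Xirp2 RNA leaned higher in knockout than in control cells of the quiescent-like class. Genotype values in that class are therefore given below as a description with no test. Gene expression was measured by droplet RNA sequencing in single myogenic progenitors, sorted as α7 integrin+ and CD45-, CD31- and Sca1- cells from tibialis anterior muscle of 12-week-old male mice on day 6 after cardiotoxin, a venom peptide that kills fibres and sets off regeneration, was injected. The 2 Pax7Cre libraries came from control mice with Cre under the Pax7 promoter, and the 2 miR-501KO libraries from mice with the same Cre and a floxed miR-501 gene (Pax7Cre/+ miR-501 fl/Y). Both groups were injured and both carried the Cre, which is not inducible, so the microRNA was deleted in the Pax7 lineage from development on. Each library pooled 3 mice, and replicates 1 and 2 of both groups came from runs 1 and 2. Values are given below in that order.

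Titin (Ttn) reaches from the Z-disc to the M-band and acts as a spring and a template for sarcomere assembly, and nebulin (Neb) runs along the thin filament. At the Z-disc, α-actinins crosslink thin filaments of neighbouring sarcomeres, telethonin (Tcap) ties the ends of 2 titin molecules, and myozenins and the PDZ-LIM protein ZASP (Ldb3) bind to α-actinin. Muscle stem cells carry the factor Pax7, and in regenerating muscle they divide, switch on myogenin (Myog), leave the cell cycle and fuse into new fibres, where sarcomeres are built.

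The 4 libraries held 73665012 to 117527749 UMIs (unique molecular identifiers, 1 per captured RNA molecule). Cells with at least 5000 UMIs and 1000 genes numbered 10450 of 16519 barcodes, 1829 to 3439 a library, with a median of 25254 to 34579 UMIs. Of these cells, 20 had a barcode that was also found in another library. Clusters were named from marker genes as quiescent-like (2881 cells), cycling-like (2029) and committed-like, the last with an early cluster of 1059 cells and a late cluster of 327. The 10 genes were left out of the genes used to cluster, but differences between clusters are still descriptions and carry no test. The sort also let through non-myogenic cells: macrophage-like (345), mural-like (264) and Schwann-like (231). The UMIs of sarcomere genes in these show how much a cell outside the muscle lineage can hold. Clusters that came almost wholly (over 90%) from 1 library held 799 cells of miR-501KO replicate 1 and 792 of its 1339 cells with Myog RNA. The other libraries had 0 to 2 cells in these clusters and 0 or 1 with Myog RNA, and results on Myog+ cells are also given without them. The targeted microRNA was not among the genes counted, so the labels were not checked against it. The deleted gene gives miR-501-3p, whose sequence from RefSeq (GRCm38.p6, chrX:7241270-7241291, minus strand) is shown with its seed, bases 2 to 8, in capitals.
miR-501-3p: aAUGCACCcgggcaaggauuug

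Late committed-like cells held the highest level of each of the 10 genes, but the genes differed in what came before and in which late cells held them. Ttn, Neb, Actn2 and Ldb3 were higher in early committed-like than in quiescent-like cells of each of the 4 libraries, and higher again in late ones. Tcap, Myoz1 and Myoz2 were lower in early committed-like than in quiescent-like cells of each library, and 27.8 to 839-fold higher in late than in early ones. Their early values were low and rest on 34, 56 and 35 UMIs. The late cluster held 81.3% of all Tcap UMIs in cells and 77.9% of Actn2, against 40.2% of Ttn UMIs. A finer clustering (Leiden resolution 1.0) set 36 of its 327 cells apart as myofibre-like, with 12 of 12 myofibre markers raised and Tcap and Myoz1 as leading genes. They came as 3 and 19 cells from Pax7Cre and 8 and 6 from miR-501KO, their median share of mitochondrial UMIs was 0.0768%, and late values are given below with and without them. Actn3 stood apart from Ttn and Neb by a smaller step from quiescent-like to early committed-like cells, 1.30 to 1.55-fold over the 4 libraries. After each cell was thinned at random to 5000 UMIs, a median of 1 of the 10 genes was found in cells of the quiescent-like class and of the cycling-like class, 3 in early and 5 in late committed-like cells. At least 5 of the 10 were found in 53.2% of late and 0.755% of early committed-like cells. None was found in 23.3% of quiescent-like, 1.42% of early committed-like and 79.2% of mural-like cells.

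**Figure D1:**
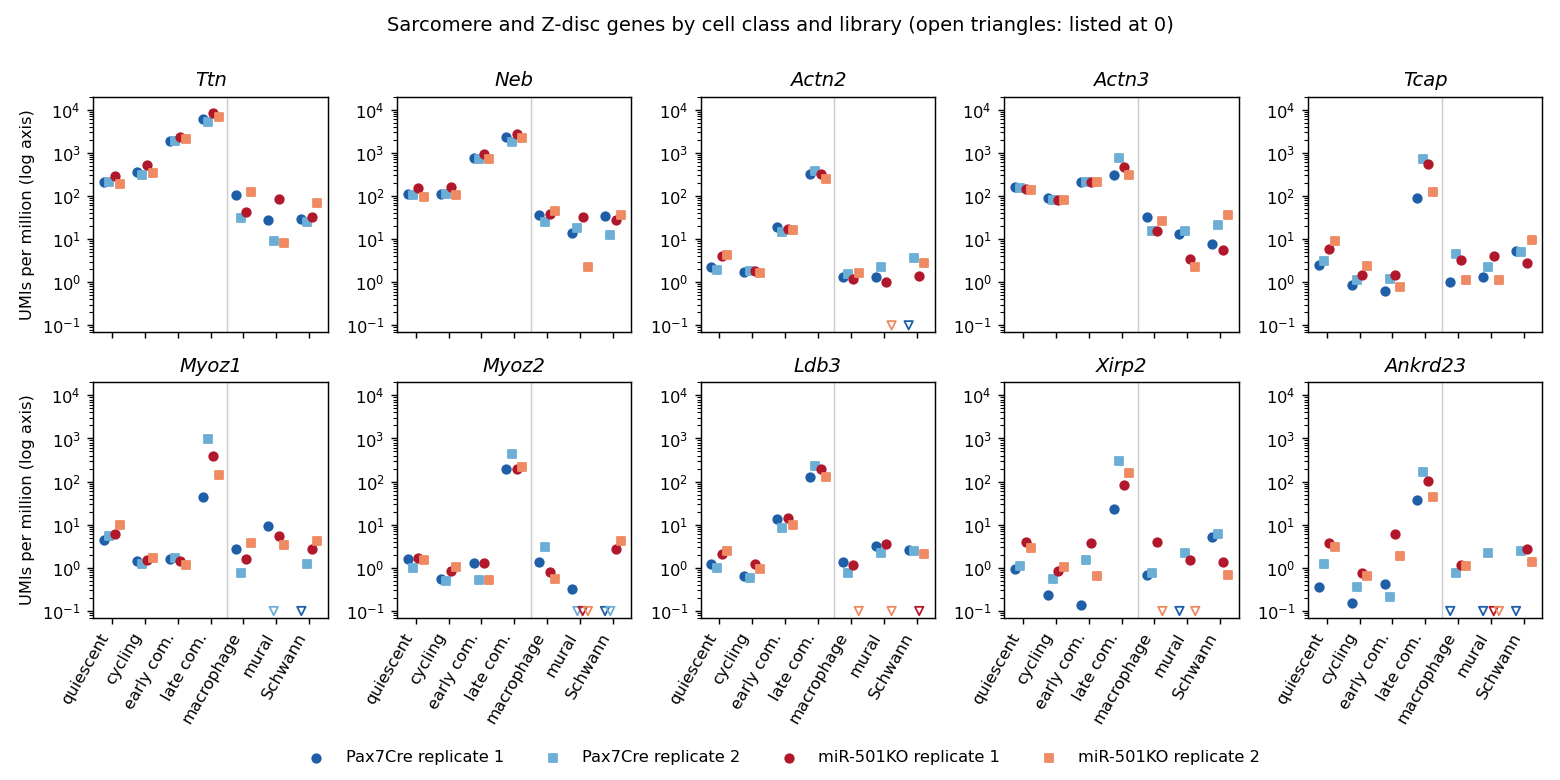
CPM (log axis) of each of the 10 genes by cell class, with 1 point per library (Pax7Cre dark and light blue, miR-501KO red and orange, replicate 1 circles, replicate 2 squares) and open triangles for values of 0. Ttn and Neb step up from quiescent-like to early and late committed-like cells, Tcap, Myoz1, Myoz2, Xirp2 and Ankrd23 are highest in late cells, and Actn3 stays between 79.1 and 762 CPM in all myogenic classes.

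The giant filament genes rose in steps from quiescent-like to late committed-like cells. In quiescent-like cells Ttn stood at 209.6 and 212 CPM in the Pax7Cre libraries and 287 and 186 CPM in the miR-501KO libraries (CPM, the gene's UMIs per 1000000 UMIs of the same cells). In early committed-like cells it stood at 1827 and 1878 CPM in Pax7Cre and 2296 and 2065 CPM in miR-501KO, and in late ones at 6029 and 5054 CPM in Pax7Cre and 8494 and 6568 CPM in miR-501KO. The 36 myofibre-like cells held 1.07% of late Ttn UMIs, and without them late cells stood at 6129 to 9879 CPM. The values of the 3 classes did not overlap, and late cells held 2.69 to 3.70 times the early level over the 4 libraries. Cycling-like cells lay between quiescent-like and early ones, at 300.1 to 522 CPM. After thinning, 40.9% of quiescent-like, 91.3% of early and 96.3% of late committed-like cells held a Ttn UMI, against 21.7% of macrophage-like, 9.09% of mural-like and 16.9% of Schwann-like cells, whose median depth before thinning was 18842, 20093 and 10560 UMIs. Ttn RNA in quiescent-like cells was thus above the level of these non-myogenic cells, at 1.49 to 6.80 times the macrophage-like CPM. Neb followed Ttn, with 109 and 106 CPM in Pax7Cre and 152 and 94.7 CPM in miR-501KO in quiescent-like cells. It reached 762 and 729 CPM in Pax7Cre and 955 and 736 CPM in miR-501KO in early committed-like cells and 2292 and 1771 CPM in Pax7Cre and 2681 and 2219 CPM in miR-501KO in late ones, again with no overlap between classes. Without the myofibre-like cells, which held 2.39% of late Neb UMIs, late Neb stood at 2326 to 3082 CPM. Unlike Ttn, Neb in cycling-like cells (106 to 158 CPM) overlapped widely with quiescent-like cells.

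The α-actinin genes went different ways. Actn2, the isoform of cardiac and all skeletal fibres, stood at 2.28 and 1.89 CPM in Pax7Cre and 3.98 and 4.21 CPM in miR-501KO in quiescent-like cells. It rose to 19.0 and 14.5 CPM in Pax7Cre and 16.8 and 16.4 CPM in miR-501KO in early and 315 and 382 CPM in Pax7Cre and 329 and 244 CPM in miR-501KO in late committed-like cells, the late values being 14.9 to 26.4 times the early ones, and at 244 to 400.3 CPM in late cells without the myofibre-like ones. Actn3, the isoform of fast fibres, stood at 159 and 157 CPM in Pax7Cre and 144 and 138 CPM in miR-501KO in quiescent-like cells. Its values in early committed-like cells, 206 to 214 CPM, were 1.30 to 1.55 times the quiescent-like ones, and cycling-like cells held the least of the myogenic classes, 79.1 to 88.7 CPM in the 4 libraries. An Actn3 UMI was found in 47.9% of thinned quiescent-like cells, against 6.96% of macrophage-like, 2.27% of mural-like and 12.1% of Schwann-like cells. Actn3 in quiescent-like cells was 4.81 to 10.3 times the macrophage-like and 9.99 to 60.3 times the mural-like CPM within libraries. Of all Actn3 UMIs in cells, 24% lay in quiescent-like and 15.9% in late committed-like cells, whereas 77.9% of Actn2 UMIs lay in the late cluster. The 36 myofibre-like cells held 44.1% of late Actn3 UMIs. Without them late Actn3 stood at 290 and 356 CPM in Pax7Cre and 250 and 270 CPM in miR-501KO. That was 1.18 to 1.72 times the early values, against 1.46 to 3.67 times with them.

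The next 2 scaffolds that bind α-actinin split along the same line. Ldb3 stood at 1.21 and 0.997 CPM in Pax7Cre and 2.08 and 2.52 CPM in miR-501KO in quiescent-like cells, at 8.53 to 14.1 CPM over the 4 libraries in early committed-like cells and at 130.1 and 233 CPM in Pax7Cre and 194 and 131 CPM in miR-501KO in late ones. Early and quiescent-like values did not overlap, nor did early and late ones. Quiescent-like Ldb3 lay near the 0.927, 2.80 and 1.79 CPM of pooled macrophage-like, mural-like and Schwann-like cells. Myoz2, the myozenin of slow and cardiac muscle, stood at 0.997 to 1.72 CPM in quiescent-like and 0.526 to 1.33 CPM in early committed-like cells, both near the 1.28 CPM of macrophage-like cells. In late cells it stood at 194 and 447 CPM in Pax7Cre and 195 and 216 CPM in miR-501KO, 146 to 839 times the early values, and without the myofibre-like cells at 179.8 and 181 CPM in Pax7Cre and 191 and 159 CPM in miR-501KO. With the myofibre-like cells Pax7Cre replicate 2 was the highest of the 4 libraries for both genes. Without them miR-501KO replicate 1 was the highest for both. The genotypes overlapped for Myoz2 and for Ldb3 (121 to 174 CPM without the myofibre-like cells).

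Promoter sequences are shown for 2 genes already raised in early cells (Ttn, Actn2) and 2 high in late cells alone among the myogenic classes (Myoz2, Xirp2), to set the switch between the classes beside the DNA next to the start site. RefSeq (GRCm38.p6) gave promoters for 6 of the 10 genes, Ttn, Actn2, Ldb3, Myoz2, Xirp2 and Ankrd23. Shown are the 250 bases before the start site, 5′ to 3′ in the direction of transcription. In capitals are E-boxes and matches to the MEF2 motif (searched on both strands). E-boxes were read as CANNTG, a general pattern that includes sites of the MyoD and myogenin family and is the same on both strands.
Ttn (chr2:76982548-76982797, minus strand): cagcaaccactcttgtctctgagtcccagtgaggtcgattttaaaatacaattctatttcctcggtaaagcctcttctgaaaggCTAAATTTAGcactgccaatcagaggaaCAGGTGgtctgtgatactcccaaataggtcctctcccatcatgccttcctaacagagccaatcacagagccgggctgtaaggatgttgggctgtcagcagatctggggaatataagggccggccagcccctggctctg
Actn2 (chr13:12340733-12340982, minus strand): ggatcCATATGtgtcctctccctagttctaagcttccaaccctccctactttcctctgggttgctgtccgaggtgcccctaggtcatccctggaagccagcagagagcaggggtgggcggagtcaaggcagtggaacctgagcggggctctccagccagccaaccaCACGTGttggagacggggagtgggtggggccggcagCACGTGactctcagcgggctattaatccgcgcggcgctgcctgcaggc
Myoz2 (chr3:123034988-123035237, minus strand): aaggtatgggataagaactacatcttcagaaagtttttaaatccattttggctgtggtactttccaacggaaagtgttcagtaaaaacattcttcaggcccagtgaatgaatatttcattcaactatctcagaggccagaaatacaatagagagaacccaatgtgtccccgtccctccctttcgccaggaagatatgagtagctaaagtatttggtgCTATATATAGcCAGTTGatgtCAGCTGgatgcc
Xirp2 (chr2:67445752-67446001, plus strand): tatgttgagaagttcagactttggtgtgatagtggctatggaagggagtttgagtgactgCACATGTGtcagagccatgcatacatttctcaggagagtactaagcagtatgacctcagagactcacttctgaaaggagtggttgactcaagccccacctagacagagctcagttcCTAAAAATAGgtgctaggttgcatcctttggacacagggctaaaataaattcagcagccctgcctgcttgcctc
Actn2 had 3 E-boxes, Myoz2 had 2, Xirp2 had 2 that overlap each other, and Ttn had 1. Neither window of Ldb3 had one, and 1 of the 2 windows of Ankrd23 had 2. Of all 32851 promoter windows of this length, 66.2% had at least 1 E-box and 12.2% at least 3. A MEF2 match was found 33 bases before the start of Myoz2, 74 before Xirp2 and 166 before Ttn, in motifs that 1.69% of all windows held. The matches are letters in these windows and were not tested as binding sites.

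Tcap, Myoz1, Xirp2 and Ankrd23 were low in early committed-like cells, and the highest early values of Xirp2 and Ankrd23 came from miR-501KO replicate 1. Tcap, which caps titin at the Z-disc, stood at 0.630 to 1.46 CPM over the 4 libraries in early cells and at 90 and 708 CPM in Pax7Cre and 563 and 125 CPM in miR-501KO in late cells. Myoz1, the myozenin of fast fibres, stood at 1.18 to 1.71 CPM in early and at 44.8 and 960.2 CPM in Pax7Cre and 383 and 140.4 CPM in miR-501KO in late cells. In both genes the late values of the libraries spread widely, Pax7Cre replicate 2 was the highest and Pax7Cre replicate 1 the lowest, so the genotypes overlapped. Xirp2, an actin-binding Xin repeat protein, stood at 0.14 to 3.84 CPM in early and 23.5 and 299.7 CPM in Pax7Cre and 83.0 and 161 CPM in miR-501KO in late cells. Ankrd23, an ankyrin repeat protein that binds titin, stood at 0.213 to 6.03 CPM in early and 38.5 and 165 CPM in Pax7Cre and 103 and 45 CPM in miR-501KO in late cells. These 4 genes were found in few cells even there: 18.0% of thinned late cells held a Tcap UMI, 14.7% Myoz1, 16.8% Xirp2 and 18.0% Ankrd23. In macrophage-like cells the shares were 1.74%, 1.45%, 0.870% and 0.290%. The 17 cells with the most UMIs of a gene, 5% of the late cells, held 82.9% of late Tcap UMIs, 88.9% of Myoz1, 73.1% of Xirp2 and 55.8% of Ankrd23 UMIs. For Ttn and Neb such cells held 19.6 and 17.6%. The 36 myofibre-like cells held 89.3% of late Tcap UMIs, 96.7% of Myoz1, 68.4% of Xirp2 and 59.3% of Ankrd23. Without them late Tcap fell to 31.6 and 67.1 CPM in Pax7Cre and 68.8 and 14.2 CPM in miR-501KO, still 18.0 to 57.3 times the early values. Late Myoz1 fell to 14.6 and 35.1 CPM in Pax7Cre and 6.18 and 2.48 CPM in miR-501KO, and miR-501KO replicate 2 was then 2.10 times its early value. Late Xirp2 stood at 19.5 and 8.14 CPM in Pax7Cre and 29.5 and 137 CPM in miR-501KO without them, and Ankrd23 at 24.8 to 79.9 CPM over the 4 libraries. For Myoz1 both miR-501KO values were then below both Pax7Cre values, and for Xirp2 both were above. Such orders were not counted over all genes in these cells and carry no test. These values were added after the others had been seen.

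Cells of the late cluster with Tcap also held the RNA of other Z-disc genes, and many of them were the myofibre-like cells. Of the 327 late committed-like cells, 59 held a Tcap UMI after thinning: 14 of 132 and 22 of 44 in the Pax7Cre libraries and 15 of 92 and 8 of 59 in the miR-501KO libraries. They included 35 of the 36 myofibre-like cells and 24 of the other 291. Myoz1 was found in 67.8% of these cells and 2.99% of the rest, and Xirp2 in 55.9% of these cells and 8.21% of the rest. Ankrd23 was found in 50.8% of these cells and 10.8% of the rest. Ttn went the other way, in 83.1% of these cells and 99.3% of the rest. In library order, Ttn stood at 5695, 2159, 5577 and 2306 CPM in cells with Tcap and 6069, 7727, 9569.8 and 7177 CPM in the others. It was lower with Tcap in each library, with the smallest gap in Pax7Cre replicate 1. Neb was lower with Tcap in 3 of 4 libraries, and Actn3, Myoz1, Ldb3, Xirp2 and Ankrd23 were higher with Tcap in all 4. Ckm, the muscle creatine kinase, stood at 2707, 11610.5, 8473 and 6759.8 CPM in cells with Tcap and 996, 1103, 781 and 714 CPM in the others, and Myog at 2243, 412, 1180.1 and 1946 CPM in cells with Tcap and 4302, 3516, 3659 and 4277 CPM in the others. Cells with Tcap thus held more RNA of a gene of mature fibres and less Myog RNA in each library. Their median share of mitochondrial UMIs was 6.00, 0.103, 3.33 and 0.30%, against 5.72, 4.84, 6.4 and 5.10% in the other late cells, and was lower in 3 of 4 libraries. Median depth was 49797, 37844, 60010.0 and 33929 UMIs with Tcap and 48902, 68823, 39427 and 53950.0 without, in library order. The part of these values in the split was not tested. The split by Tcap was made after the values were seen, and it carries no test.

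**Figure D2:**
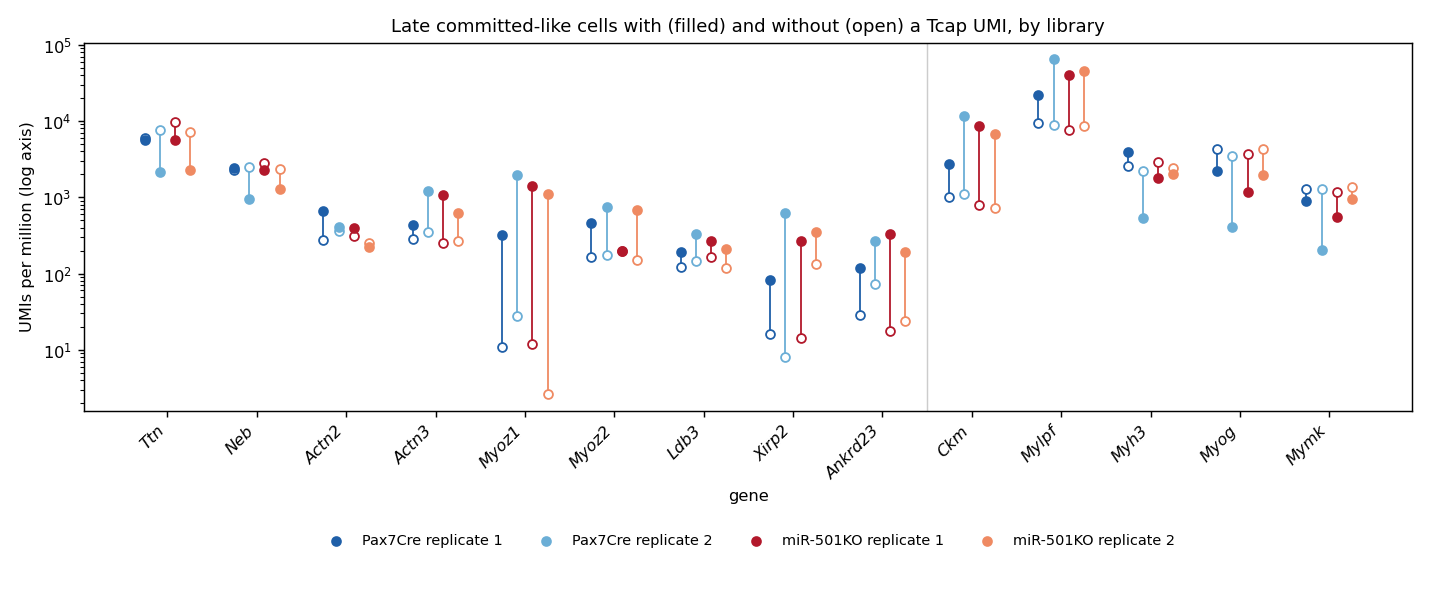
CPM (log axis) of 9 of the 10 genes and of 5 other muscle genes in late committed-like cells with a Tcap UMI (filled points) and without (open points), joined by a line for each library. Myoz1, Xirp2, Ankrd23, Actn3 and Ckm are higher in cells with Tcap in the 4 libraries, and Ttn and Myog are lower.

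The first test asked which genes differed between cells that had switched on Myog (a Myog UMI after thinning) and cells with Pax7 but no Myog RNA. UMIs were summed per library and group of cells and compared within libraries by edgeR's quasi-likelihood test with Benjamini-Hochberg adjustment over all genes tested. All 10 genes passed the filter on low counts. 9 of them were higher in Myog+ cells, where 24.2% of all genes tested were higher and 23.1% lower (47.3% in either direction). Ttn stood at 258 and 249 CPM in Pax7Cre and 302 and 254 CPM in miR-501KO in Pax7+ Myog- cells and at 1865 and 1866 CPM in Pax7Cre and 1699 and 2130.3 CPM in miR-501KO in Myog+ cells. The groups of cells did not overlap, with a log2 fold change of 3.00 ± 0.11 (SE of 8 sums, adjusted p = 3.58e-07). For Neb it was 2.73 ± 0.12 (adjusted p = 8.07e-07), and for Actn2, with 42.4 to 56.7 CPM in Myog+ against 1.56 to 3.5 CPM in Pax7+ Myog- cells, 4.48 ± 0.20 (adjusted p = 9.07e-07). Actn3 moved least of the 9, with 142 to 201 against 115 to 128 CPM (log2 fold change 0.72 ± 0.08, adjusted p = 0.000228), and its values still did not overlap. Myoz2 rose by the most, with a log2 fold change of 4.81 ± 0.15 (adjusted p = 1.73e-07), and Ldb3 rose by 3.91 ± 0.17 (adjusted p = 8.09e-07). Xirp2 and Ankrd23 rose by 2.51 ± 0.47 and 2.34 ± 0.40 (adjusted p = 0.00270 and 0.00166).

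Tcap and Myoz1 depended on the libraries and on the cells they were compared with. Tcap stood at 1.93 and 2.29 CPM in Pax7Cre and 4.59 and 6.52 CPM in miR-501KO in Pax7+ Myog- cells and at 5.60 and 19.1 CPM in Pax7Cre and 26.5 and 5.22 CPM in miR-501KO in Myog+ cells. It was higher in 3 of 4 libraries and lower in miR-501KO replicate 2, with a log2 fold change of 1.90 ± 0.49 in edgeR (adjusted p = 0.0122). Without the 1-library clusters, Myog+ cells of miR-501KO replicate 1 held 16.5 CPM of Tcap in place of 26.5, and the log2 fold change was 1.61 (adjusted p = 0.00525). Myoz1 stood at 3.14 and 3.99 CPM in Pax7Cre and 4.85 and 6.32 CPM in miR-501KO in Pax7+ Myog- cells and at 3.54 and 22.4 CPM in Pax7Cre and 14.7 and 4.36 CPM in miR-501KO in Myog+ cells, and did not pass the threshold (1.17 ± 0.44, adjusted p = 0.0589). It passed without Pax7Cre replicate 1 (1.45, adjusted p = 0.0455) and without miR-501KO replicate 2 (1.66, adjusted p = 0.00549), and its log2 fold change was 0.65 without Pax7Cre replicate 2. Without the 1-library clusters 9 of the 10 genes were called as before and Myoz1 had 0.62 (adjusted p = 0.236). Of all 13460 genes tested in that fit, 4190 were higher and 4433 lower. With all Myog- cells as the comparison both genes turned, to -0.54 for Tcap (adjusted p = 0.0321) and -0.92 for Myoz1 (adjusted p = 0.00305), and Xirp2 was no longer called (1.10, adjusted p = 0.158). Cells with neither Pax7 nor Myog RNA, which enter there, held 8.19 and 66.2 CPM in Pax7Cre and 72.4 and 11.5 CPM in miR-501KO of Tcap, above the Myog+ level in each library, and 5.85 and 91.4 CPM in Pax7Cre and 54.5 and 13.5 CPM in miR-501KO of Myoz1.

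Among Myog+ cells, those with no Pax7 UMI were compared with those that still held one. 6 of the 10 genes were higher in the cells without Pax7 RNA, where 16.6% of all genes tested were higher, 12.7% lower and 29.3% either: Ttn, Neb, Actn2, Actn3, Myoz2 and Ldb3. Ttn stood at 813 and 587 CPM in Pax7Cre and 1073 and 943 CPM in miR-501KO with Pax7 RNA and at 1991 and 2007 CPM in Pax7Cre and 1776 and 2306 CPM in miR-501KO without, higher in each library and with no overlap (log2 fold change 1.39 ± 0.14, adjusted p = 0.000677). Neb rose by 1.5 ± 0.19 (adjusted p = 0.00136), Myoz2 by 1.90 ± 0.30 (adjusted p = 0.00291) and Ldb3 by 1.62 ± 0.31 (adjusted p = 0.00586). Actn2 rose by 1.39 ± 0.32 (adjusted p = 0.0121), and was not called without Pax7Cre replicate 1 (adjusted p = 0.0509). Tcap, Myoz1, Xirp2 and Ankrd23 were not called, with log2 fold changes of 0.52 ± 0.42, 1.2 ± 0.48, 1.31 ± 0.62 and 0.65 ± 0.42. In miR-501KO replicate 1, where most Myog+ cells lay in the 1-library clusters, cells with Pax7 RNA held 39.1 CPM of Tcap, against 2.41, 3.38 and 3.15 in the other libraries. Without that library all 10 genes were called, Tcap at 1.81 (adjusted p = 0.000711), Myoz1 at 2.44, Xirp2 at 2.98 and Ankrd23 at 1.59. More genes were called over all in that fit too, 2509 higher and 2020 lower of 12419. Without the 1-library clusters in all libraries, 7 were called, Myoz1 being the added one, where 2515 of all 12313 genes were higher and 2084 lower.

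Myog+ cells with RNA of Mki67, Top2a or Cdk1, genes of dividing cells, held less of most sarcomere RNAs than Myog+ cells without. 7 of the 10 genes were lower in them, where 15.4% of all genes tested were lower and 17.9% higher (33.3% in either direction). Ttn stood at 871 and 986 CPM in Pax7Cre and 622 and 1152 CPM in miR-501KO with cell cycle RNA and at 2356 and 2320.1 CPM in Pax7Cre and 2759 and 2656 CPM in miR-501KO without. The 2 groups of cells did not overlap, and the log2 fold change was -1.48 ± 0.14 (adjusted p = 0.000269). Neb fell with -1.59 ± 0.13 (adjusted p = 0.000194), Actn2 with -2.02 ± 0.15 (adjusted p = 0.000151) and Ldb3 with -2.01 ± 0.20 (adjusted p = 0.000368). Myoz2 fell with -2.21 ± 0.40 (adjusted p = 0.00468) and Actn3, as before by the least, with -0.53 ± 0.10 (adjusted p = 0.00488). Xirp2 fell with -2.25 ± 0.51 (adjusted p = 0.0129), but was not called without Pax7Cre replicate 1 (adjusted p = 0.0506). Ankrd23 missed the threshold (-1.32 ± 0.44, adjusted p = 0.0513) and passed it without Pax7Cre replicate 2 (-1.98, adjusted p = 0.00935). In miR-501KO replicate 1, 231 of the 744 cells with cell cycle RNA lay outside the 1-library clusters. Without those clusters 8 of the 10 genes were lower, Ankrd23 being the added one (-1.31, adjusted p = 0.0276), Ttn had -1.38 and Tcap -1.07 (adjusted p = 0.187). Of all 12658 genes tested in that fit, 2771 were lower and 2927 higher. Tcap stood at 0.702 and 29.5 CPM in Pax7Cre and 24.6 and 1.89 CPM in miR-501KO with cell cycle RNA and 8.03 and 13.7 CPM in Pax7Cre and 28.4 and 7.01 CPM in miR-501KO without, lower in 3 of 4 libraries and higher in Pax7Cre replicate 2, and its log2 fold change had a 95% interval of -1.77 to 0.86. That of Myoz1 reached from -1.30 to 1.95, and it was higher with cell cycle RNA in 2 of 4 libraries. Its sign turned with the limit for a cell at 2000 UMIs, where it was called lower (-1.29, adjusted p = 0.0281).

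**Figure D3:**
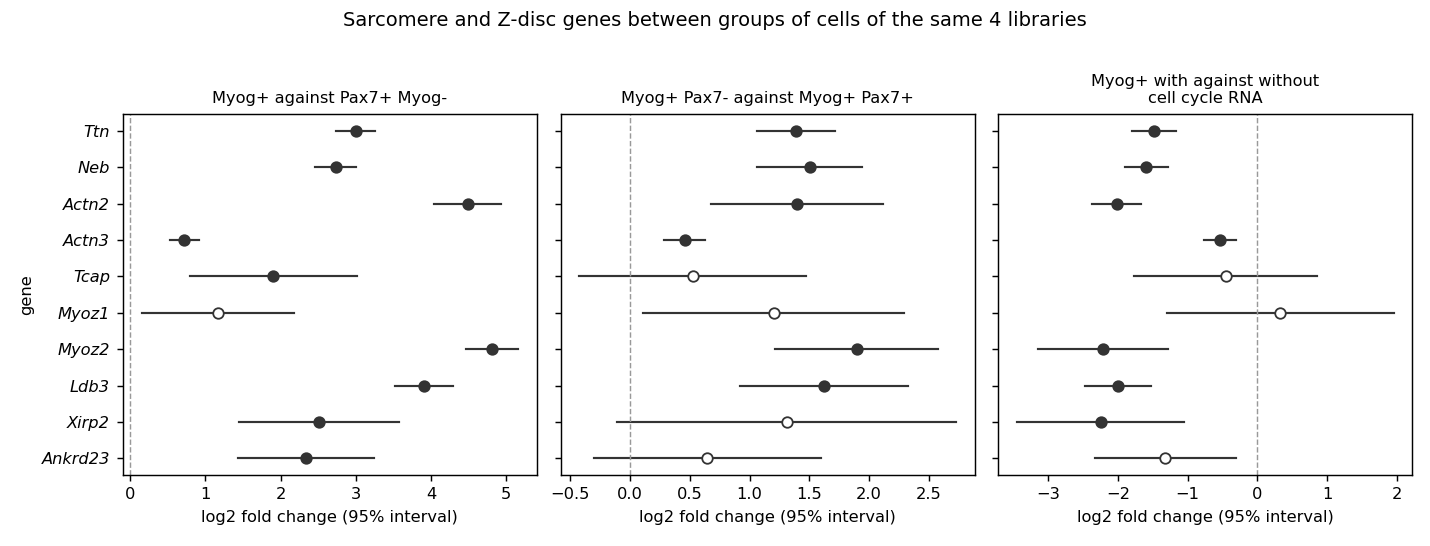
Log2 fold change of the 10 genes with 95% interval in the comparisons of Myog+ with Pax7+ Myog- cells, of Myog+ cells without and with Pax7 RNA, and of Myog+ cells with and without cell cycle RNA, from sums over 4 libraries (filled points, adjusted p under 0.05). Called genes number 9, 6 and 7, and the intervals of Tcap and Myoz1 are wider than those of Ttn, Neb and Actn3.

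Other genes of the same structures were followed from lists drawn from the known parts of the sarcomere. In Myog+ against Pax7+ Myog- cells, other Z-disc genes numbered 13 higher and 2 lower of 15 tested, with a median log2 fold change of 1.71 against -0.02 over all genes, of which 24.2% were called higher. Csrp3, a Z-disc LIM protein, rose by 5.38 ± 0.15 (adjusted p = 1.18e-07) and Xirp1, a relative of Xirp2, by 5.48 ± 0.20 (adjusted p = 3.33e-07). Titin-linked and M-band genes numbered 12 higher and 1 lower of 14 tested (median 3.49), led by Trim63, a ubiquitin ligase of the M-band, at 6.19 ± 0.22, and Capn3, a protease held by titin, at 5.41 ± 0.47. Of the assembly and filament-capping genes 8 of 12 were higher and 1 lower (median 3.89), with Unc45b, a myosin chaperone, at 6.50 ± 0.12. The non-muscle α-actinins Actn1 and Actn4 were not called in either direction (median -0.15), beside 4.48 ± 0.20 for Actn2. In Myog+ cells with cell cycle RNA, the 3 muscle lists had 12 of 15, 11 of 14 and 9 of 12 genes lower, with medians of -0.91, -1.63 and -1.32, where 15.4% of all genes were lower. In cells without Pax7 RNA, 13 of 14, 12 of 14 and 9 of 12 were higher, against 16.6% of all genes.

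The largest 1-library cluster, 659 cells of miR-501KO replicate 1, had raised markers of both myofibres (7 of 12) and macrophages (7 of 13) and stayed unnamed. Its sarcomere RNAs did not have the proportions of committed-like cells of that library. Ttn stood at 78.3 CPM and Neb at 48.1, against 2296 and 955 in early committed-like cells. Tcap stood at 39.0 CPM, Myoz1 at 27.7 and Myoz2 at 19.8, against 1.46, 1.46 and 1.28. Actn2 was alike at 17 and 16.8 CPM, and Actn3 was lower at 112 against 212. The 1-library clusters held 59.1% of the Myog+ cells of that library. Outside the 1-library clusters its Myog+ cells held 3168 CPM of Ttn in place of 1699. The cluster came from 1 library, so genotype and library cannot be told apart in it.

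Genotypes were compared with the library as the replicate, 2 against 2, in the classes that had not chosen the genes. None of the 10 genes was called in Myog+, committed-like or cycling-like cells by edgeR's quasi-likelihood test, where 0.0, 0.0 and 0.0228% of all genes tested were called. At an unadjusted p under 0.05 there were 0 of the 10 in Myog+ cells (3.09% of all genes), 0 in committed-like (2.49%) and 4 in cycling-like cells (2.74%). DESeq2 called none of the 10 in any class. In Myog+ cells Ttn stood at 1865 and 1866 CPM in Pax7Cre and 1699 and 2130.3 CPM in miR-501KO, which overlap, with a log2 fold change of 0.11 ± 0.16 and a 95% interval of -0.27 to 0.49 (adjusted p = 0.886). Neb, Actn2, Actn3, Myoz2 and Ldb3 lay between -0.15 and 0.18. Tcap stood at 5.60 and 19.1 CPM in Pax7Cre and 26.5 and 5.22 CPM in miR-501KO. The genotypes overlap, and the interval of -1.43 to 2.53 is wider than that of Ttn. Without the 1-library clusters its log2 fold change turned from 0.55 to -0.20, while that of Ttn rose to 0.47. Xirp2 stood at 3.15 and 11.7 CPM in Pax7Cre and 5.30 and 21.2 CPM in miR-501KO, with 0.90 ± 0.74 (adjusted p = 0.870). With the run as a replicate block it was called, with 0.88 (adjusted p = 0.00527) and miR-501KO was higher within each run. In that fit 294 genes were called higher and 4 lower, against 0 without the block.

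In committed-like cells Ttn stood at 3069.9 and 2704 CPM in Pax7Cre and 5049 and 3345 CPM in miR-501KO. Both miR-501KO values were above both Pax7Cre values, as for 17.3% of all genes, with a log2 fold change of 0.50 ± 0.23 and an interval of -0.01 to 1.02 (adjusted p = 0.9997). The share of committed-like cells in the late cluster was 22.9 and 15.8% in Pax7Cre and 35.7 and 21.7% in miR-501KO, and its part in the difference was not tested. Within the early cluster alone Ttn differed by 0.19 and within the late one by 0.28. Tcap stood at 27.1 and 185 CPM in Pax7Cre and 251 and 36.1 CPM in miR-501KO. Myoz1 stood at 14.4 and 251 CPM in Pax7Cre and 171 and 40.7 CPM in miR-501KO. Xirp2 stood at 7.05 and 79.0 CPM in Pax7Cre and 39.0 and 46.2 CPM in miR-501KO. In these 3 genes Pax7Cre replicate 1 was the lowest library, and the choice of library set the direction. Without Pax7Cre replicate 2, the log2 fold change was 2.32 for Tcap, 2.80 for Myoz1, 2.54 for Xirp2 and 1.35 for Ankrd23. Without Pax7Cre replicate 1, it had the opposite sign for Myoz1 (-1.28) and Xirp2 (-0.90). At Leiden resolution 1.0, where the 36 myofibre-like cells were not in the committed-like class, Xirp2 was called at 2.53 (adjusted p = 0.0339), and Tcap had 0.52 and Myoz1 -1.42. The fits without a Pax7Cre library set 1 control library against 2 and assume that it varies like the others.

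In cycling-like cells the sarcomere RNAs other than Ttn, Neb and Actn3 were close to the level of non-myogenic cells. Several leaned higher in miR-501KO without passing adjustment. Tcap stood at 0.861 and 1.10 CPM in Pax7Cre and 1.43 and 2.40 CPM in miR-501KO. Xirp2 stood at 0.235 and 0.549 CPM in Pax7Cre and 0.850 and 1.05 CPM in miR-501KO. Ankrd23 stood at 0.157 and 0.366 CPM in Pax7Cre and 0.744 and 0.653 CPM in miR-501KO. In each of the 3 genes both miR-501KO values were above both Pax7Cre values, as for 13.0% of all genes, but none reached the 2.20, 1.51 and 0.696 CPM of pooled macrophage-like cells except Tcap in miR-501KO replicate 2 and Ankrd23 in miR-501KO replicate 1. The log2 fold changes were 0.99 ± 0.36, 1.36 ± 0.50 and 1.5 ± 0.56, with unadjusted p of 0.0107, 0.0105 and 0.0132 in edgeR and an adjusted p of 0.9999 for each. They rest on 139, 61 and 43 UMIs in 2029 cells. Ttn, with 351 and 300.1 CPM in Pax7Cre and 522 and 336 CPM in miR-501KO, had a log2 fold change of 0.36 ± 0.17 (unadjusted p = 0.0392 in edgeR, adjusted p = 0.9999), and miR-501KO replicate 1 was the high library. Its log2 fold change was 0.61 without miR-501KO replicate 2 and 0.07 without miR-501KO replicate 1.

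**Figure D4:**
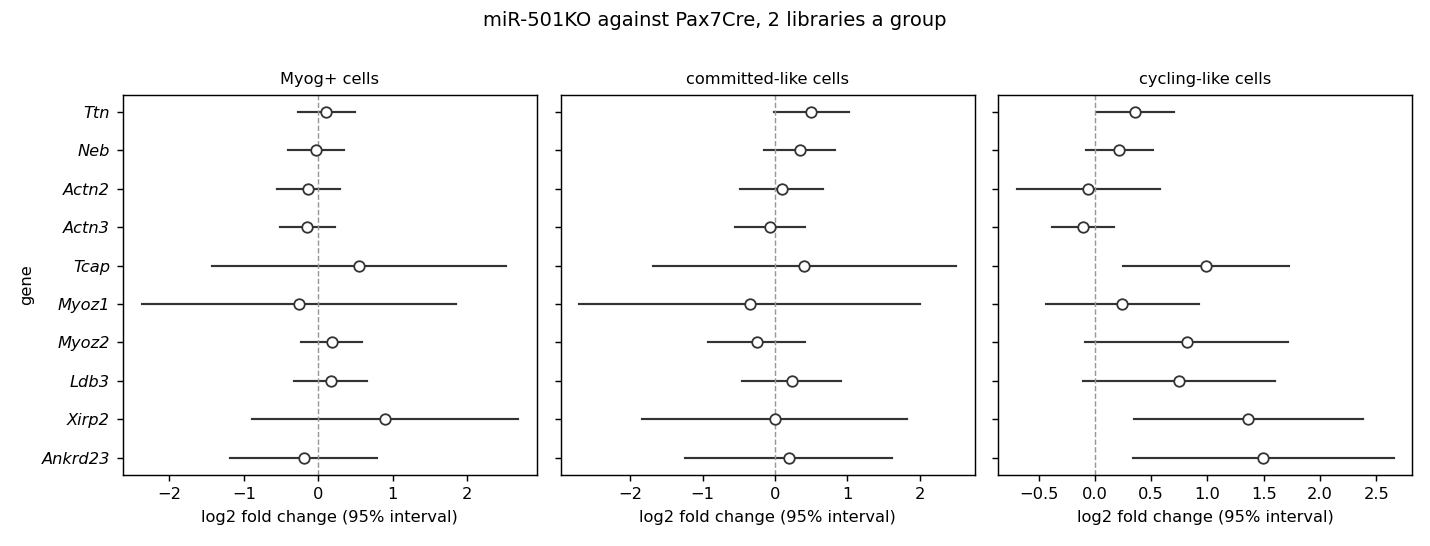
Log2 fold change of the 10 genes, miR-501KO against Pax7Cre, with 95% interval in Myog+, committed-like and cycling-like cells (2 libraries a group, open points because no adjusted p is under 0.05). Intervals of Tcap, Myoz1 and Xirp2 in committed-like cells span more than 3 log2 units, and that of Actn3 lies from -0.55 to 0.42.

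The values that marked out Tcap and Xirp2 were these. In quiescent-like cells Tcap stood at 2.55 and 3.04 CPM in Pax7Cre and 5.76 and 9.19 CPM in miR-501KO. Xirp2 stood at 0.940 and 1.10 CPM in Pax7Cre and 3.92 and 2.91 CPM in miR-501KO. Both miR-501KO values were above both Pax7Cre values in each gene, and the group means differed by 1.42 and 1.74 on the log2 scale. Ankrd23 (0.358 and 1.21 CPM in Pax7Cre and 3.86 and 3.04 CPM in miR-501KO), Actn2 (2.28 and 1.89 CPM in Pax7Cre and 3.98 and 4.21 CPM in miR-501KO) and Ldb3 (1.21 and 0.997 CPM in Pax7Cre and 2.08 and 2.52 CPM in miR-501KO) had the same order, as had Myoz1 (4.52 and 5.40 CPM in Pax7Cre and 6.01 and 10.1 CPM in miR-501KO). For Myoz2 (1.61 and 0.997 CPM in Pax7Cre and 1.72 and 1.49 CPM in miR-501KO) the groups overlapped. They also overlapped for Ttn (209.6 and 212 CPM in Pax7Cre and 287 and 186 CPM in miR-501KO) and for Neb. In both of these, miR-501KO replicate 1 was the highest and miR-501KO replicate 2 the lowest library. Actn3, which stood well above non-myogenic cells, had the opposite order (159 and 157 CPM in Pax7Cre and 144 and 138 CPM in miR-501KO). All these values are descriptions, since this contrast chose the genes. The share of all genes with both miR-501KO values above both Pax7Cre values was not counted in this class.

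The levels of Tcap and Xirp2 in quiescent-like cells lay within the range over libraries of non-myogenic cells. Within single libraries this did not always hold. Pooled over libraries, Tcap stood at 4.80 CPM in quiescent-like, 2.20 in macrophage-like, 2.18 in mural-like and 6.55 in Schwann-like cells. Library by library, quiescent-like Tcap in miR-501KO replicate 1 was above the 3.20, 4.0 and 2.79 CPM of these 3 types, and in miR-501KO replicate 2 it was above macrophage-like and mural-like cells and below the 9.70 CPM of Schwann-like cells. After thinning, 1.09 and 1.69% of cells in the Pax7Cre libraries and 1.77 and 4.76% in the miR-501KO libraries of the quiescent-like class held a Tcap UMI. The share was 1.74% over all macrophage-like cells, with 3.77% in the highest library, and 3.46% over all Schwann-like cells, with 5.41% in the highest. The Schwann-like values rest on 22 UMIs in 231 cells. Xirp2 was found in 0.545, 0.615, 2.09 and 1.73% of thinned quiescent-like cells in library order, in 0.870% of macrophage-like cells (2.0% in the highest library) and in 2.16% of Schwann-like cells. Shares at or below those of such cells are not taken as expression here, and their source was not tested. Barcodes under the limits for a cell held 46.4 and 149 CPM in Pax7Cre and 70.7 and 72.5 CPM in miR-501KO of Tcap and 25.6 and 40.6 CPM in Pax7Cre and 37.8 and 23.3 CPM in miR-501KO of Xirp2, more than quiescent-like cells in each library. 1 quiescent-like cluster of 83 cells, 52 of them from miR-501KO replicate 2, had 4 of 12 myofibre markers raised and 52.3 CPM of Tcap. Without it Tcap stood at 2.33 and 3.07 CPM in Pax7Cre and 5.69 and 6.83 CPM in miR-501KO. Xirp2 stood at 0.942 and 1.11 CPM in Pax7Cre and 3.65 and 2.34 CPM in miR-501KO, with the same order of the groups and a smaller difference of 1.21 and 1.55 on the log2 scale. The part of RNA from other cells in the lean was not tested.

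**Figure D5:**
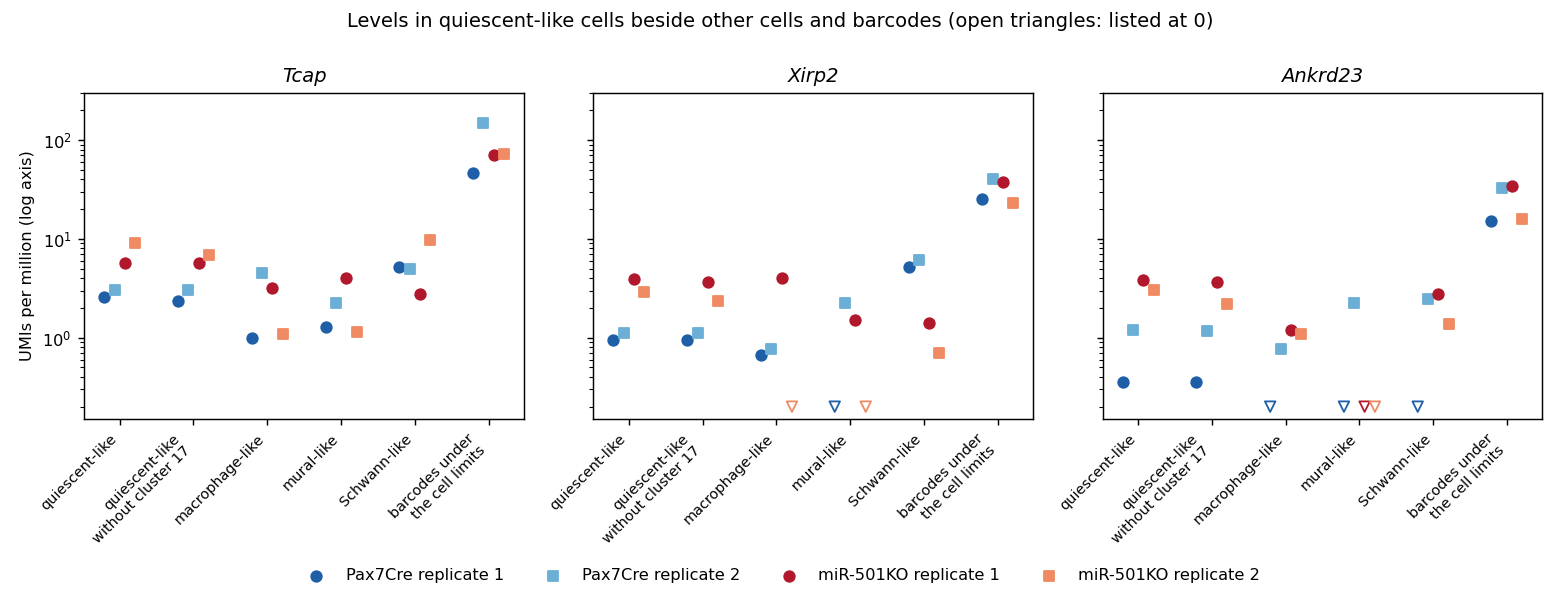
CPM (log axis) of Tcap, Xirp2 and Ankrd23 in quiescent-like cells with and without cluster 17 (83 cells with raised myofibre markers), in macrophage-like, mural-like and Schwann-like cells and in barcodes under the limits for a cell, 1 point per library, open triangles for values of 0. Quiescent-like Tcap lies at 2.55 to 9.19 CPM, Schwann-like Tcap at 2.79 to 9.70 and barcodes under the limits at 46.4 to 149.

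The genes whose pattern was most like that of the set were named over 28 sums of cells, 1 per library and class of at least 20 cells, by Pearson's r of log2 CPM among 8632 genes with a mean of at least 10 CPM. The sums share libraries and depth, so the r values are descriptions. The summed level of the 10 genes was most like Klhl31 (0.979), Baiap2l1 (0.977), Chrng (0.976), Arl6ip5 (0.973), Atp2a1 (0.971), Dusp27 (0.97), 1110002E22Rik (0.969), Bin1 (0.966), Klhl40 (0.964) and Ryr1 (0.963). Tcap was most like Myot (0.956), Casq1 (0.955), Smpx (0.943), Pfkm (0.939) and Eef1a2 (0.937), and Xirp2 Myot (0.930), Casq1 (0.911), Tceal7 (0.911), Smpx (0.910) and Pfkm (0.909). Myot, a Z-disc protein, led both lists. Within the set Ttn went with Neb (r = 0.982), Actn2 with Ldb3 (0.962) and Tcap with Xirp2 (0.933), and the lowest value was that of Actn3 and Tcap (0.483).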

How the data were processed

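Per the file headers, Cell Ranger 6.0.2 made the matrices, and the submitters' processing notes name GRCm39. The study's methods name another Cell Ranger release, and which one gave these values is not known. The authors deposited raw UMI counts per gene and barcode as filtered matrices with gene and barcode lists, which pair gene IDs with symbols. The 10 genes and all gene lists were chosen with earlier results of these data known. Libraries were named Pax7Cre and miR-501KO replicates 1 and 2 from the labels.

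Barcodes under 5000 UMIs or 1000 genes were dropped, and the remaining cells were scaled to 10000, clustered on 2000 variable genes without the 10 genes (30 components, 15 neighbours, Leiden resolution 0.5, scanpy 1.11.5, Python 3.11.15), and named where at least 3 fixed markers were 1.5-fold raised and in 10% of cells. Scrublet called 19 of 10450 cells (0.182%) and did not work as a doublet caller, so removal of the 5% highest scores was an alternative. Shares and gates used counts thinned to 5000 UMIs per cell, and levels (CPM) used raw UMIs. Sums per library were tested with edgeR 4.0.16 (limma 3.58.1, R 4.3.3), TMM scaling, a filter on low counts and quasi-likelihood F tests with Benjamini-Hochberg adjustment over all genes, with the library as a block for comparisons within libraries. DESeq2 1.42.0 was an alternative. The tests were tested on simulated counts with known changes. Each library pooled 3 mice, and p-values of the genotype comparisons measure the spread between such libraries. Those of the comparisons within libraries measure how the difference between groups of cells varied from library to library. Replicates were not duplicates of 1 library: the chi-square between their UMI sums, over its degrees of freedom, was 14.2 to 59.6. The replicate number marks a shared run in the labels, and run differences of the 2 genotypes correlated at 0.431 in Myog+, -0.179 in committed-like and -0.0614 in cycling-like cells. Named genes were the 10, at most 4 examples a list with the largest called change, and the genes most alike over sums of at least 20 cells. The microRNA itself was not analysed here.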

Additional observations from a re-analysis of the deposited data

Results flagged for a closer look

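The genotype differences of Myoz1 and Myoz2 had opposite signs in 2 classes of cells, at levels near 1 CPM and without passing a test. The difference of Myoz1, miR-501KO minus Pax7Cre, was 0.0788 CPM in run 1 and 0.507 CPM in run 2 in cycling-like cells, and -0.149 and -0.522 CPM in early committed-like cells. For Myoz2 it was 0.302 and 0.542 CPM in cycling-like and -0.0519 and -0.00720 CPM in early committed-like cells. These differences between the classes were not tested.

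Barcodes under the limits for a cell, some of which entered the comparisons with the limit at 2000 UMIs alone, held Ttn at 567 and 339 CPM in Pax7Cre and 1416 and 983 CPM in miR-501KO, above the quiescent-like level of the same library. Neb stood there at 232 and 124 CPM in Pax7Cre and 424 and 260.5 CPM in miR-501KO.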

How the results depend on the processing

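With 2 libraries a group, the genotype differences of Tcap, Myoz1, Xirp2 and Ankrd23 changed sign with the library left out in Myog+ and committed-like cells. Their direction there could not be settled. In cycling-like cells these genes rested on few UMIs and were not called in the main fit. The number of the 10 genes called kept within 1.5 times its value except as follows. In Myog+ cells without against with Pax7 RNA it was 6, and 5 to 10 when 1 library was left out. Over all genes, the fits with 1 library left out called 852 to 2509 higher and 690 to 2020 lower. Between genotypes the number of the 10 called was 0 in each class and 1 in Myog+ cells with the replicate block. It was 1 in committed-like cells at Leiden resolution 1.0 (Xirp2, 2.53, adjusted p = 0.0339 in edgeR). It also varied in committed-like and cycling-like cells when 1 library was left out, which left 1 library in a group. The Tcap log2 ratio in quiescent-like cells was 1.04 to 1.72 without 1 library. Over all genes, edgeR called 0 genes between genotypes in Myog+ cells, 0 in committed-like and 3 in cycling-like cells, with 430, 303 and 360 at an unadjusted p under 0.05, and DESeq2 called 8, 1 and 3. With the replicate block, 294 genes were higher and 4 lower in Myog+ cells, 1 higher in committed-like, and 28 higher and 4 lower in cycling-like cells. With no filter on low counts 42 were higher and 1 lower in Myog+ cells, 2 higher in committed-like, and 40 higher and 6 lower in cycling-like cells. Cycling-like cells had 0 called genes without cells over the mitochondrial limit or without the highest Scrublet scores, and 1 with 2000 UMIs or at Leiden resolution 0.3 or 1.0. In committed-like cells 2 genes were called at Leiden resolution 1.0. For Myog+ cells without against with Pax7 RNA, 2063 genes were higher and 1577 lower, with 875 and 618 at 2000 UMIs, 3454 and 3520 without thinning and 953 and 888 with no library block. With all Myog- cells as the comparison, the log2 fold change turned to -0.54 for Tcap and -0.92 for Myoz1 in Myog+ against Pax7+ Myog- cells. With no library block, the log2 fold change turned to 0.058 for Tcap in the cell cycle comparison. With a limit of 2000 UMIs per cell, the log2 fold change turned to -1.29 for Myoz1 in the cell cycle comparison and 0.93 for Myoz1 and 0.079 for Ankrd23 in Myog+ cells. Without the 1-library clusters, the log2 fold change turned to -0.050 for Myoz1 in the cell cycle comparison and 0.31 for Neb, 0.12 for Actn2, -0.20 for Tcap and 0.069 for Ankrd23 in Myog+ cells. With gates read without thinning, the log2 fold change turned to -1.60 for Myoz1 in the cell cycle comparison. With DESeq2, the log2 fold change turned to -0.45 for Myoz1 in the cell cycle comparison. In the named myogenic clusters alone, the log2 fold change turned to 0.42 for Neb, 0.24 for Actn2, -0.14 for Tcap and 0.21 for Ankrd23 in Myog+ cells. With the replicate block, the log2 fold change turned to 0.0073 for Myoz1 in Myog+ cells and 0.42 for Myoz1 and 0.70 for Xirp2 in committed-like cells. In the early committed cluster alone, the log2 fold change turned to -0.075 for Actn2 and 1.48 for Xirp2 in committed-like cells. In the late committed cluster alone, the log2 fold change turned to -0.47 for Actn2, -0.50 for Tcap, -0.38 for Ldb3 and -0.71 for Ankrd23 in committed-like cells. At Leiden resolution 1.0, the log2 fold change turned to 0.45 for Myoz2 and 2.53 for Xirp2 in committed-like cells. Without the 5% highest Scrublet scores, the log2 fold change turned to 0.0083 for Xirp2 in committed-like cells. Leaving out 1 library gave -1.22 to 0.068 for Tcap and -0.75 to 0.89 for Myoz1 in the cell cycle comparison, -0.13 to 0.045 for Neb, -0.31 to 0.014 for Actn2, -1.19 to 1.61 for Tcap, -1.51 to 1.53 for Myoz1, -0.041 to 0.35 for Myoz2, -0.067 to 0.38 for Ldb3, -0.30 to 2.07 for Xirp2 and -0.70 to 0.52 for Ankrd23 in Myog+ cells, -0.42 to 0.46 for Actn2, -0.32 to 0.22 for Actn3, -1.53 to 2.32 for Tcap, -1.68 to 2.80 for Myoz1, -0.66 to 0.29 for Myoz2, -0.37 to 0.65 for Ldb3, -0.90 to 2.54 for Xirp2 and -0.92 to 1.35 for Ankrd23 in committed-like cells, -0.039 to 0.45 for Neb and -0.11 to 0.0052 for Actn2 in cycling-like cells. The named myogenic clusters alone and the early and late clusters alone were alternatives chosen after seeing the data. The cause was not tested for any of them.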

Other observations

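An unnamed cluster of 460 cells with a median of 7356 UMIs and 28.1% mitochondrial UMIs held Ttn and Neb RNA above quiescent-like cells of each library. Its Ttn stood at 1245 and 2152 CPM in Pax7Cre and 993 and 2617 CPM in miR-501KO, below early committed-like cells in Pax7Cre replicate 1 and miR-501KO replicate 1 and above them in the other 2 libraries. Its Neb stood at 372 and 460.1 CPM in Pax7Cre and 279 and 516 CPM in miR-501KO, below early committed-like cells of each library. Actn2 stood at 5.07 to 9.53 CPM and Actn3 at 69.1 to 109.6 CPM, also below early committed-like cells of each library, and Tcap pooled over libraries at 3.32 CPM.

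In late committed-like cells the adult fast myosin gene Myh4 stood at 124, 384, 257 and 31.8 CPM in cells with Tcap and 11.4, 28.0, 5.95 and 8.33 CPM in the others. The embryonic myosin gene Myh3 stood at 3923, 538, 1813 and 1991 CPM in cells with Tcap and 2575, 2207, 2943 and 2412 CPM in the others, higher with Tcap in Pax7Cre replicate 1 and lower in the other 3 libraries.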
